A study of Mus musculus with 10 samples.

Results

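In Il1rn knockout mice, CD4+ spleen cells taken at 4 months of age were compared with those taken at 1 month, on 2 arrays against 2. Il1rn encodes the interleukin-1 receptor antagonist, and the series concerns arthritis in mice. These 4 arrays were chosen by their labels from the 10 of the series, and all 11759 named genes that passed a filter on dim signal were compared. The other 6 arrays came from wild-type mice, 3 at 1 month and 3 at 4 months, and served as the same age comparison in animals that carry the gene. All groups share the tissue and the CD4+ selection, and the labels name no treatment. Each array came from 1 mouse, per the design text. The labels give neither strain, sex, kind of deletion, state of the joints in the single mice, purity of the sort nor any array batch, so age and a batch that followed age cannot be told apart.

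Interleukin-1 acts through a receptor on many cell types and leads to the activation of NF-kB, a transcription factor of inflammatory genes. The antagonist occupies that receptor without activating it, so mice without it lack this brake on the cytokine, and some strains then develop T cell dependent arthritis. CD4+ T cells help other immune cells and divide into naive, memory and specialised helper classes. The spleen of a young mouse also makes red cells and granulocytes, and its red pulp holds macrophages.

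The arrays reported signal as intensity, a linear brightness per probe set with no fixed unit, and changes are given on the log2(intensity + 16) scale as 4 minus 1 month with the standard error of limma. Folds are on that scale too and understate the change of dim genes. A gene was called when limma's adjusted p was under 0.05, where adjustment is by Benjamini-Hochberg over all 11759 genes. At 4 months 1381 genes were higher (11.7% of those tested) and 1834 were lower (15.6%), which is 27.3% in all. By at least 2-fold 775 of these rose (6.59% of those tested) and 833 fell (7.08%), 13.7% in all. All 3215 called genes had arrays that did not overlap between the ages, but 66.2% of all genes tested were separated in that way with 2 arrays against 2 (31.1% with 4 months above and 35.1% below), and an exact two-sided test of such groups cannot give a p under 0.333. The median change over all genes was -0.01. Centring each array on its median moved that to -0.36 and gave 697 higher and 3694 lower genes, a split of 15.9% higher in place of 43%. Quantile normalization gave 1116 higher and 2298 lower, or 32.7% higher. The choice among probe sets moved the split the other way. The mean of the probe sets of a gene gave 1866 higher and 1677 lower, or 52.7% higher. Every named probe set taken by itself gave 3451 and 2859, or 54.7% higher. Directions of gene groups are therefore given with these alternatives where they flip.

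The number of called genes varied with single arrays. Without array 2 of 4 months it was 446 higher and 664 lower, without array 1 of 4 months 652 and 1022, and without array 1 of 1 month 587 and 838; each such fit assumes that the lone array left at that age varies like the other groups. Adding the mean level of the granulocyte markers as a covariate, an alternative chosen after seeing the data, left 0 genes called by limma in either direction (1509 at an unadjusted p under 0.05). In the knockout that mean level was 10.15 and 11.3 at 1 month and 6.85 and 8.05 at 4 months. The covariate thus separates the ages by itself, and this fit cannot tell age from the granulocyte markers. Some alternatives say nothing on the sign of a knockout change. Dropping the trend, the replicate block and the fit of the 2 ages alone leave its size as it is. Leaving out a wild-type array can move it only through the filter or the choice of probe set. Counts of alternatives that kept a sign include all of these. Without the first array of both genotypes at 1 month, also chosen after seeing the data, 613 were higher and 805 lower.

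Some measures of the arrays as a whole moved with age in both genotypes. Median intensity was 65.2 and 77.1 at 1 month and 101 and 98.6 at 4 months in the knockout, while the trimmed mean of every array was 500. Signal of the B1 repeat control was 4958 and 3035 at 1 month and 10772 and 10046 at 4 months, against 3049 to 3173 and 8343 to 10402 in the wild type. The ratio of 3' to 5' signal for Gapdh, a sign of RNA integrity, was 0.693 and 0.704 and then 0.665 and 0.614. The part of these shifts in the results below was not tested.

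The deleted gene gave no check of the labels by age. Il1rn had 3 probe sets, all under the filter on dim signal. One of them read 39.4 and 24.9 at 1 month and 14 and 11.3 at 4 months, and none of the 3 changed at an unadjusted p under 0.05 by limma. The labels do not say which stretch of the gene is missing, so a remaining signal checks nothing.

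T cell markers were measured at both ages beside bright signal of other cell types at 1 month, which is given further on. Of 12 measured markers of T cell identity, 9 rose, where 11.7% of all genes did, and 0 fell. The median change was 0.96 against -0.01 over all genes. Cd4 itself, the co-receptor that defines the sorted cells, read 1547 and 2967 at 1 month and 3572 and 4802 at 4 months, a change of 0.95 ± 0.33 (limma, adjusted p = 0.0495). Cd28, the co-stimulatory receptor, read 2142 and 2611 and then 6643 and 6559.9, a change of 1.47 ± 0.16 (adjusted p = 0.000199). Cd247, the zeta chain of the T cell receptor complex, read 1686 and 2951 and then 4768 and 5505. Thy1, a surface glycoprotein of T cells, read 1830.2 and 4286 and then 6259.6 and 7825. In each of these genes both arrays of 4 months lay above both of 1 month, and array 1 of 1 month was the lowest of the 4. Cd4 passed narrowly and lost its call in 14 alternatives besides the covariate, centring and any array of 4 months left out among them, and Thy1 and Cd247 lost theirs without array 1 of 1 month or array 2 of 4 months. Cd3e read 2447 and 5822 and then 5085 and 5918, so that its ages overlapped. The summed intensity of the list was 38806 to 66397 at 1 month and 83353 to 91048 at 4 months, and 53323 to 67753 and 71393 to 85658 in the wild type, where 4 of the 12 rose (6.71% of all genes tested rose there and 9.76% fell). Without array 2 of 4 months, or without array 1 of 1 month, 1 of the 12 passed in the knockout, and 5 without array 1 of 4 months; 5 passed after centring, and the median kept its sign in 23 of 23 alternatives, with 0.61 after centring and 1.07 with the granulocyte covariate.

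**Figure D1:**
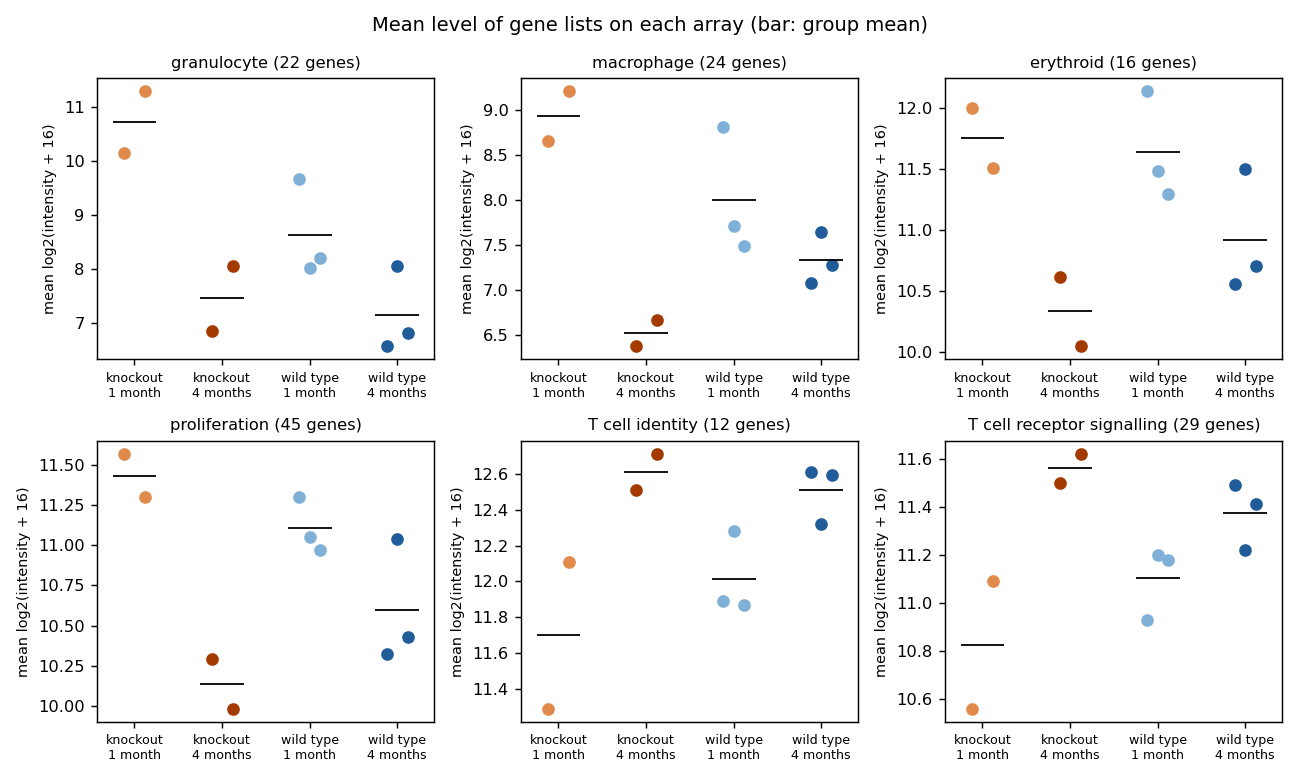
Mean log2(intensity + 16) of the tested members of 6 gene lists on each of the 10 arrays, with a bar at each group's mean. In the knockout the granulocyte, macrophage, erythroid and proliferation lists are lower on both arrays of 4 months than on both of 1 month, and both T cell lists are higher.

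The deepest falls were in genes of granulocytes, the short-lived phagocytes made from myeloid precursors. Of 22 measured markers 17 fell, where 15.6% of all genes did, and 0 rose. The median change was -3.50, against -0.01 over all genes. In bulk samples such as these, fewer cells of a type and less RNA per cell cannot be told apart. S100a9, a subunit of the calcium-binding protein calprotectin, read 15218 and 32497 at 1 month and 109.8 and 2406 at 4 months, a change of -5.33 ± 1.43 (limma, adjusted p = 0.017). Its partner S100a8 read 19549.6 and 32102 and then 198 and 2988. Both were the brightest at 1 month of the genes that fell by at least 2-fold, and array 1 of 4 months was far below array 2. The genes of secondary granules spread in the same way: Camp, the antimicrobial cathelicidin, read 3302 and 9826 and then 57.8 and 417, and Ngp, a neutrophil granule protein, read 5267 and 19351 and then 112 and 1028. With this spread, S100a8, S100a9, Camp and Ngp lost their calls without array 2 of 1 month or array 1 of 4 months, and all but Camp without array 1 of 1 month.

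The genes of primary granules, which are made in early precursors, had closer replicates. Elane, neutrophil elastase, read 4013 and 6074 at 1 month and 128 and 205 at 4 months, a change of -4.80 ± 0.65 (limma, adjusted p = 0.000675). Mpo, myeloperoxidase, read 12776 and 15526 and then 1017 and 1581. Ctsg, cathepsin G, read 4739.6 and 4459 and then 293 and 488. Ms4a3, a membrane protein of granulocyte precursors, read 2136 and 1845 and then 108 and 162 and had the smallest p of the list (-3.75 ± 0.34, adjusted p = 9.54e-05). Every one of these was at least 11-fold lower at 4 months, and all 4 kept their calls in all alternatives except the granulocyte covariate. The wild type also fell in 7 of the 22, where 9.76% of all genes did, with a median of -1.76. There Elane changed by -3.48, Mpo by -3.11 and S100a9 by -1.80 (limma, adjusted p = 0.316). The summed intensity of the list was 78443 to 145519 at 1 month and 3397 to 11898 at 4 months in the knockout, and 14202 to 55095 and 2459 to 11719 in the wild type. A direct test of the difference between the age changes called 0 of the 22. Of the measured members that did not pass, Il1b, the cytokine that the antagonist opposes, changed by -0.62. The count was 8 without array 2 of 1 month and 8 without array 1 of 4 months. With the granulocyte covariate, which is built from these genes, the median was 0.51 and the changes of Camp, Cd177, Chil3, Lcn2, Ltf, Mmp8, Ngp, S100a8 and S100a9 were positive.

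Genes of macrophages, the resident phagocytes, fell beside them. Of 24 measured markers 17 fell, where 15.6% of all genes did, 0 rose, and the median was -2.39. In the wild type 2 of the 24 fell, where 9.76% of all genes did, and the median was -0.63. Csf1r, the receptor for macrophage colony-stimulating factor, read 2112 and 3428 at 1 month and 94.3 and 144 at 4 months, a change of -4.35 ± 0.42 (limma, adjusted p = 0.000123). Mpeg1, whose product forms pores in engulfed bacteria, read 1007 and 1254 and then 26 and 39.1, a change of -4.57 ± 0.53 (adjusted p = 0.000316). Lyz2, lysozyme, read 2853 and 7123 and then 139.6 and 459; Lyz1 is a near-identical copy, and the probe sets may not tell them apart. C1qa, a chain of the first complement component, read 248 and 479 and then 3.14 and 5.47, levels at the dim end of the arrays, and it lost its call without array 2 of 1 month or either array of 4 months. The summed intensity of the list was 27490 to 44744 at 1 month and 9329 to 10524 at 4 months. Ctss, a lysosomal protease, and Fcgr1, an antibody receptor, changed by 0.22 and -0.05 and did not pass. The count was 10 without array 2 of 1 month, 11 without either array of 4 months, and the median kept its sign in 23 of 23 alternatives.

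Markers of other blood cells are read against the 11.7% of all genes that rose and the 15.6% that fell. After centring 697 of all 11759 genes were higher and 3694 lower, and under quantile normalization 1116 and 2298. Of 10 measured mast cell and basophil genes 5 fell: Mcpt8, a basophil protease, read 598 and 559 and then 103 and 131, and Kit, the stem cell factor receptor, read 2231 and 1782 and then 652 and 590.4. Without array 2 of 4 months 3 of the 10 passed. The change of Mcpt8 was 0.08 in the wild type (adjusted p = 0.873), and the difference of -2.25 ± 0.45 did not pass after adjustment (limma, adjusted p = 0.258). Of 14 dendritic cell genes 3 fell (6 under quantile normalization and 6 after centring), the transcription factors Irf8 (-1.89), Tcf4 (-1.60) and Batf3 (-1.78), the last without passing when either array of 4 months was left out. B cell markers gave 2 higher and 2 lower of 23 and a median of -0.51 that turned to 1.37 with the granulocyte covariate. Quantile normalization gave 0 higher and 4 lower (median -0.89) and centring 0 higher and 5 lower (median -0.86), and with 1 array left out 0 to 3 were higher and 1 to 5 lower. Ms4a1, the B cell surface protein CD20, read 786 and 1390.4 and then 221 and 399, while H2-Aa, a chain of the class II molecule that presents antigen, read 1584 and 3628 and then 618 and 1390.4 and did not pass. Ighm, the IgM heavy chain, was very bright at both ages and read 31321 and 53479 and then 53065 and 47948. Of 18 measured genes of CD8 T and natural killer cells 2 rose, Prf1 by 1.66 and Itgae by 1.26, and 2 fell, Tyrobp and Fcer1g, which macrophages also express. Their median of 0.09 turned to -0.30 under quantile normalization and -0.26 after centring. In the wild type 9 of the 18 rose and 0 fell, with a median of 0.9, where 6.71% of all genes rose. The test of the difference had an unadjusted p under 0.05 in 9 of the 18 and called 0. Cd8a, which marks the other T cell class, was at 90.6 and 293 and then 30.9 and 245 and did not pass.

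Red cell genes fell in 13 of 16 measured members, with a median of -1.38, where 15.6% of all genes fell. In the wild type 1 of the 16 fell, where 9.76% of all genes did, and the median was -0.68. Ermap, a membrane protein of red cell precursors, read 11541 and 11629 at 1 month and 4748 and 2871 at 4 months, a change of -1.65 ± 0.26 (limma, adjusted p = 0.0015). Rhd, of the Rh blood group complex, read 5480.5 and 4999.5 and then 1383 and 1069. Gata1, the transcription factor that drives the red cell programme, read 2223 and 2726 and then 1005 and 910.3. Car2, a carbonic anhydrase, stayed bright at both ages, with 25648 and 30651 and then 17798 and 12788. The replicates of 1 month were close to one another and clear of those of 4 months in all 4 genes. The count was 4 without array 2 of 4 months and 7 without array 1 of 1 month, and Car2 lost its call without array 2 of either age.

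Of 45 measured genes of the cell cycle 41 fell, where 15.6% of all genes did, 0 rose, and the median was -1.36. All 45 had arrays that did not overlap between the ages, as 66.2% of all genes did. In the wild type 16 fell, where 9.76% of all genes did, and 1 rose, with a median of -0.52. Ccnb2, a cyclin that drives entry into mitosis, read 5495 and 4277 at 1 month and 1534 and 1173 at 4 months, a change of -1.84 ± 0.26 (limma, adjusted p = 0.000836). Cdk1, the kinase it activates, read 4782 and 4308 and then 1591 and 1402. Tk1, thymidine kinase of the DNA synthesis phase, read 3681 and 3095 and then 948 and 889.6. Birc5, which guides chromosome segregation, read 7229 and 5516 and then 2101 and 1889.6. The 6 subunits of the replicative helicase had smaller changes, from -0.77 for Mcm7, which lost its call without any 1 knockout array, to -1.14 for Mcm3. Mki67, a nuclear protein of dividing cells, read 5505 and 5555 and then 4199.9 and 3044 and did not pass (-0.63 ± 0.31, adjusted p = 0.15). Tyms, thymidylate synthase, changed by 0.55 and did not pass either. The test of the difference between genotypes had an unadjusted p under 0.05 in 26 of the 45 and called 0. The count was 26 without array 2 of 4 months and 29 without array 1 of 1 month, and the median kept its sign in 23 of 23 alternatives, with -0.86 under the granulocyte covariate. Red cell and granulocyte precursors divide too, and their markers fell on the same arrays; the part of those cells in the cell cycle values was not tested.

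Promoters of the granulocyte and cell cycle genes are shown because these sets fell together. Each window is the 250 bases before a RefSeq transcription start of GRCm38.p6, for the 3 members of smallest p in each list that have a window, read 5′ to 3′ on the gene's strand. Windows were found for 18 of the 22 granulocyte genes and 38 of the 45 cell cycle genes. For granulocyte genes the capitals mark TTGCNNAA, the core of sites for C/EBP factors, and GAGGAA, the core of sites for PU.1, each searched on both strands; both factors act in myeloid cells.
Ms4a3, chr19:11640852-11641101, minus strand: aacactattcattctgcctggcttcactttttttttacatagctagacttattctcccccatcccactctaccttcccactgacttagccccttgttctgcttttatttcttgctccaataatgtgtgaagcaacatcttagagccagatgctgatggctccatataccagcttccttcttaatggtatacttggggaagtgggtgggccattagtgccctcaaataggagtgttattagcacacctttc
Elane, chr10:79886062-79886311, plus strand: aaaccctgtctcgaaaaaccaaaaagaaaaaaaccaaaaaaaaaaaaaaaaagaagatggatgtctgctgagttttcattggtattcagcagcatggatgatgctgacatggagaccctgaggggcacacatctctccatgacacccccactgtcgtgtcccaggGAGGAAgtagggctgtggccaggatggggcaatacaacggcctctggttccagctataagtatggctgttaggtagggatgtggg
Ctsg, chr14:56102575-56102824, minus strand: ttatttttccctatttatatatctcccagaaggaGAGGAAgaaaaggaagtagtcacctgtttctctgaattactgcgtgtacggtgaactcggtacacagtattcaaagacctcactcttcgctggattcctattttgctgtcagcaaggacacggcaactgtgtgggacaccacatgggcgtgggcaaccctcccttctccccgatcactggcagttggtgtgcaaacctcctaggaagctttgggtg
For cell cycle genes the capitals mark CCAAT, the box that NF-Y binds, and TTTGAA, the cell cycle homology region, on both strands, so that ATTGG is CCAAT on the other strand.
Ccnb2, chr9:70421555-70421804, minus strand: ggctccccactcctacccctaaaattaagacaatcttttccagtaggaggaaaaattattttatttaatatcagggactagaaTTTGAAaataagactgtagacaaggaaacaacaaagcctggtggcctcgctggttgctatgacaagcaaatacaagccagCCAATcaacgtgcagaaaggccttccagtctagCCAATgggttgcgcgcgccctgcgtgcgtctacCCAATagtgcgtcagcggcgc
Cdca3, chr6:124829926-124830175, plus strand: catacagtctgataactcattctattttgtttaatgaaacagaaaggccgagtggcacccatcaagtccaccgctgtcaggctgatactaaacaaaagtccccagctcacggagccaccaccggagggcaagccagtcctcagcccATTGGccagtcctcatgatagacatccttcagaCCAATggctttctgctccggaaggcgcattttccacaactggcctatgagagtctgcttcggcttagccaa
Cenpa, chr5:30666636-30666885, plus strand: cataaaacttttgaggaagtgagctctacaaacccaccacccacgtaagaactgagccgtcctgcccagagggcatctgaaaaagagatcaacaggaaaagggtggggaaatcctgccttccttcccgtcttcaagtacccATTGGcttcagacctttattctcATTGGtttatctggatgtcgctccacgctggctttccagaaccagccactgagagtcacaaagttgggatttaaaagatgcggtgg

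Ms4a3 held neither myeloid motif, and Elane and Ctsg each held GAGGAA, whose first base lay 85 and 216 bases before the start. GAGGAA was in 11 of 18 granulocyte windows (61.1%), in 23.3% of all 32851 windows of the table and in 22.6% of the 12227 windows of tested genes. TTGCNNAA was in 6 of 18 (33.3%), in 9.56% of all and in 7.66% of those of tested genes. Ccnb2 held CCAAT at 87, 54 and 21 bases and TTTGAA at 167 bases before the start. Cdca3 held CCAAT at 104 and 71 bases, and Cenpa held it at 2 places, one of them 86 bases before the start. CCAAT was in 32 of the 44 windows of cell cycle genes (72.7%), in 33.8% of all and in 35% of those of tested genes. TTTGAA was in 11 of 44 (25%), in 16% of all and in 10.7% of those of tested genes. A match is a description of the letters in the window and neither a site nor a cause, and no match says only that these letters are not there.

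Genes of 2 housekeeping systems fell by smaller steps, where 11.7% of all genes rose and 15.6% fell. Of 62 measured genes of oxidative phosphorylation, the mitochondrial chain that makes ATP, 27 fell and 1 rose, with a median of -0.42 (-0.12 in the wild type). The one called higher was Atp5c1, a subunit of ATP synthase, by 0.89 ± 0.26. Under the stricter filter another of its probe sets stood for it, with a change of -0.54 (limma, adjusted p = 0.0282), so its probe sets disagreed. Ndufb2, a subunit of complex I, read 5223 and 4865 at 1 month and 2538 and 2099 at 4 months, a change of -1.12 ± 0.17 (limma, adjusted p = 0.00106); taking the mean of its probe sets turned this to 0.33. Of 31 proteasome genes, which encode the complex that degrades marked proteins, 15 fell and 0 rose, with a median of -0.43. In the wild type 8 of them fell, where 9.76% of all genes did, with a median of -0.2. Psma5 read 12695 and 12698 and then 5778 and 4787, and Psmb2 read 5382 and 5195 and then 2639 and 2581. Without array 2 of 4 months 8 genes of oxidative phosphorylation and 2 of the proteasome passed, without array 1 of that age 12 and 6, and without array 1 of 1 month 16 and 6. After centring 53 and 31 were lower, where 3694 of all 11759 genes were and the median over all genes was -0.36. Under quantile normalization 21 and 8 were lower, where 2298 of all genes were. Both medians kept their sign in 23 of 23 alternatives. Ribosomal protein genes gave 1 higher and 2 lower of 43, and their median of 0.20 turned to -0.02 under quantile normalization and -0.15 under centring; without array 2 of 1 month 15 of them were higher.

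Of 29 measured signalling genes of the T cell receptor 19 rose and 1 fell, with a median of 0.79 (0.34 in the wild type, where 5 rose and 3 fell). Of all genes tested 11.7% rose and 15.6% fell in the knockout, and 6.71% and 9.76% in the wild type. After centring 8 were higher and 3 lower, where 697 and 3694 of all 11759 genes were. Plcg1, the phospholipase that starts the calcium signal, read 800.2 and 1106 at 1 month and 2871 and 2659 at 4 months, a change of 1.54 ± 0.21 (limma, adjusted p = 0.000771). Fyn, a kinase close to the receptor, read 1894 and 3276 and then 7106 and 7167. Nfatc2, a transcription factor activated by calcium, read 243 and 370.1 and then 779 and 943. The one that fell was Ppp3ca, a catalytic subunit of calcineurin, which read 1601 and 1345 and then 855 and 835 and also fell in the wild type (-0.66, adjusted p = 0.0166). Without array 1 of 1 month or array 2 of 4 months 5 passed as higher, and 12 without array 1 of 4 months. Ppp3ca lost its call in each of these 3 fits, and Plcg1 lost its call when its probe sets were averaged (0.81).

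Lists of naive and of memory cells both held genes that rose, where 11.7% of all genes rose and 15.6% fell. After centring 697 of all 11759 genes were higher and 3694 lower. Of 18 naive T cell genes 10 rose and 0 fell, with a median of 0.70, and 6 rose after centring. In the wild type 2 of them rose and 0 fell, with a median of 0.3. Il7r, the receptor for the survival cytokine interleukin-7, read 5251 and 8321 at 1 month and 14928 and 17069 at 4 months, a change of 1.27 ± 0.24 (limma, adjusted p = 0.00349). Klf2, a transcription factor that holds cells in circulation, read 2220.1 and 5011 and then 8385 and 9315. Of 29 effector memory genes 11 rose and 2 fell, with a median of 0.62, and 9 were higher and 6 lower after centring. In the wild type 13 of the 29 rose and 1 fell, with a median of 0.56. Ahnak, a large scaffold protein, read 371 and 750.3 and then 2753 and 3129 (2.44 ± 0.30, adjusted p = 0.000381), and changed by 2.16 in the wild type. Cxcr6, a chemokine receptor of memory cells, read 851 and 1272 and then 2702 and 4013, with 2.06 in the wild type. The 2 that fell were Cd44, the adhesion receptor used as a memory marker, which read 4144 and 3949 and then 2696 and 2810.4, and Anxa1, an annexin that granulocytes also express, which read 3489 and 7272 and then 522 and 1186. The counts of higher genes were 5 for naive and 7 for effector memory without array 2 of 4 months, and 5 and 8 without array 1 of 1 month; that of naive genes was 6 without array 1 of 4 months. Klf2 and Cd44 lost their calls in each of these 3 fits, and averaging the probe sets of Cd44 gave -0.03.

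In the lists of helper classes some members rose and none fell, where 11.7% of all genes rose and 15.6% fell. Beside them the T cell identity list had a median of 0.96 in the knockout and 0.57 in the wild type. Tnf, Fasl and Tnfsf8, ligands of the tumour necrosis factor family, rose by 0.92, 1.24 and 1.61. In the Th17 list 7 of 13 rose: Il6st, the shared receptor chain of interleukin-6, read 864 and 1229 at 1 month and 3090.2 and 3605 at 4 months (1.68 ± 0.18, limma, adjusted p = 0.000208), Il6ra rose by 1.71 and Stat3, which carries their signal, by 1.38. Il17a, Il17f and Il22, cytokines of that class, did not pass the filter on dim signal. In the Th1 list 6 of 13 rose, among them Stat4 by 1.26 and Il18r1, a receptor chain for interleukin-18, by 1.75, while Ifng, the defining cytokine, changed by 0.82 and did not pass. In the Th2 list 4 of 7 rose, with Maf at 1.21 and Il4ra at 1.32; Il4 changed by 0.24 and Gata3 by 0.59, and neither passed. In the follicular helper list 5 of 15 rose, with Slamf6 at 1.71 and Btla at 1.30, and Bcl6, its master regulator, at 0.51 without passing. In the regulatory T cell list 7 of 14 rose, with the inhibitory receptor Ctla4 at 1.24 and Nt5e, which makes adenosine, at 1.50, and Foxp3, its defining factor, at 0.75 without passing. Medians were 0.81, 0.82, 0.98, 0.93 and 0.78 in that order, and 0.25, 0.90, 0.45, 0.28 and 0.44 in the wild type; none changed sign in the 23 alternatives. Without array 2 of 4 months 3, 1, 2, 3 and 2 of these genes passed, and without array 1 of 1 month 3, 1, 2, 3 and 3, while the follicular helper count was 9 without array 2 of 1 month and 3 under quantile normalization. Stat3, Il18r1 and Il4ra lost their calls without array 1 of 1 month or array 2 of 4 months, and Stat4 without the latter.

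**Figure D2:**
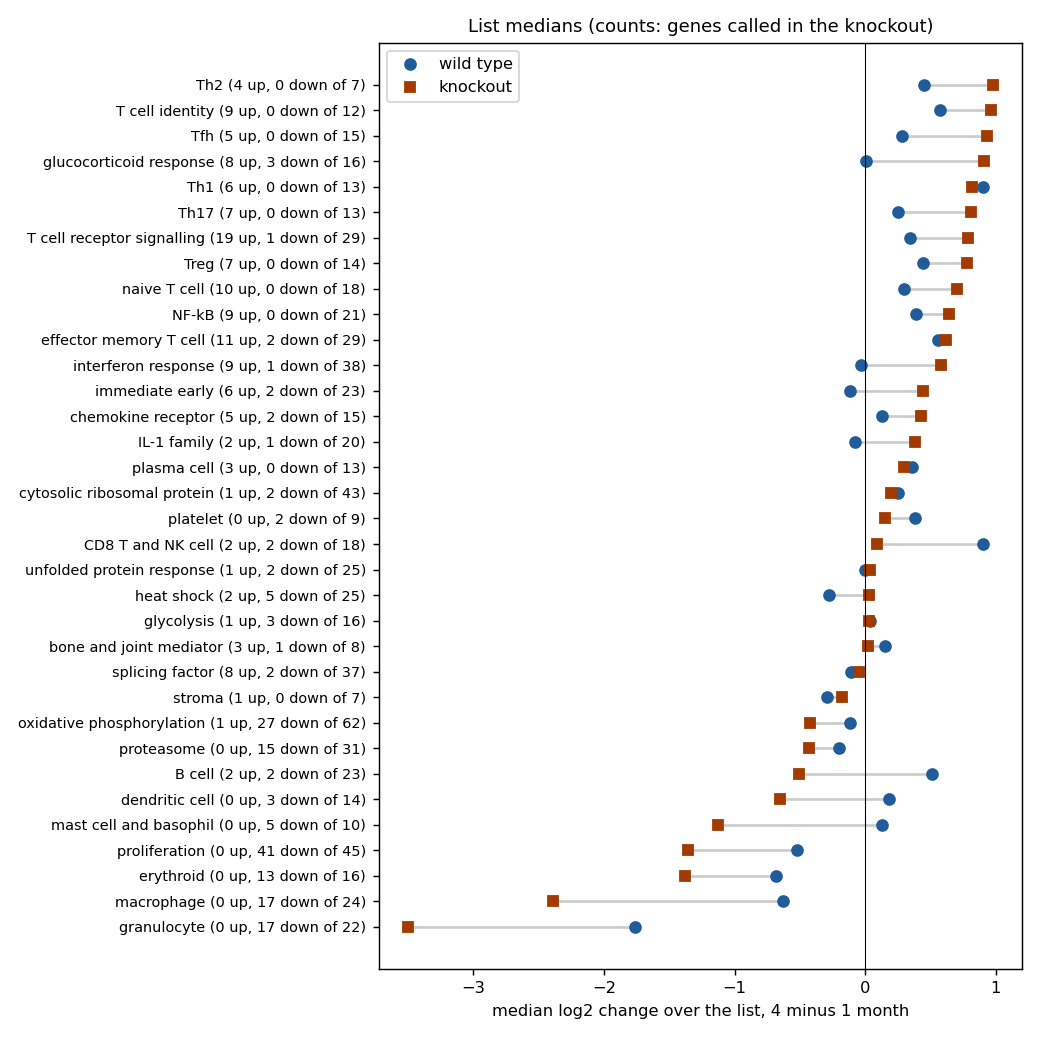
Median log2 change from 1 to 4 months over the tested members of 34 gene lists in the knockout (squares) and the wild type (circles), with the number of members called in the knockout beside each name. The knockout medians run from -3.50 for granulocyte markers to 0.98 for the Th2 list.

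In the interleukin-1 family itself 2 of 20 measured genes rose and 1 fell, against 11.7% and 15.6% of all genes. Myd88, the adaptor of the interleukin-1 receptor, rose by 0.88 and Il18r1 by 1.75, and Irak1, the kinase next in the pathway, fell by 0.60. Il1r1, the signalling receptor, read 86.9 and 25.6 at 1 month and 127 and 187 at 4 months and did not pass (1.38 ± 0.55, limma, adjusted p = 0.0817). The median of 0.38 turned to -0.05 under quantile normalization, and 2 rose and 3 fell after centring. The 2 risen genes lost their calls without array 1 of 1 month or array 2 of 4 months, Irak1 without array 2 of 1 month or either array of 4 months, and 4 rose without array 2 of 1 month. Of 21 measured NF-kB genes 9 rose and 0 fell, with a median of 0.64 (0.39 in the wild type); 5 were higher under quantile normalization and 3 after centring. Traf1, an adaptor of tumour necrosis factor receptors, read 115 and 189 and then 1219.7 and 1291 (2.96 ± 0.23, adjusted p = 4.89e-05), and 2.67 was its change in the wild type. Tnfaip3, an inhibitor of the pathway, rose by 0.96, and Rela and Rel, subunits of the factor itself, changed by 0.31 and 0.13 without passing. Without array 2 of 4 months 1 of the 21 passed, without array 1 of 1 month 2, and without array 1 of 4 months 3.

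Of 23 immediate early genes 6 rose and 2 fell (6 and 4 under quantile normalization, 4 and 3 after centring): Junb, a subunit of the factor AP-1, read 228 and 486 at 1 month and 1868 and 2320.1 at 4 months (2.58 ± 0.40, limma, adjusted p = 0.00142), and Myc, which drives growth, read 4422 and 4829.8 and then 2639.8 and 2512. Fos and Egr1 changed by 1.04 and 0.01 without passing. Of 16 genes that respond to glucocorticoids 8 rose and 3 fell. Tsc22d3, a glucocorticoid-induced inhibitor, read 2914 and 3076 and then 5930.1 and 10354, and changed by 0.30 in the wild type (adjusted p = 0.347). Of 38 interferon response genes 9 rose and 1 fell, but 3 were higher and 5 lower after centring. Over all genes 11.7% rose and 15.6% fell, and after centring 697 of 11759 were higher and 3694 lower. Igtp, a GTPase induced by interferon-gamma, read 4325 and 6764 and then 12326 and 8422. Ifih1, a sensor of viral RNA, read 1822 and 1929.5 and then 1092 and 819. The median of the interferon list was 0.58, and -0.03 in the wild type, where 0 rose and 4 fell. The number of higher interferon genes ran from 2 without array 1 of 1 month or array 1 of 4 months to 18 without array 2 of 1 month. That of immediate early genes ran from 2 without array 2 of 4 months to 11 without array 2 of 1 month, and that of glucocorticoid genes was 4 without array 2 of 4 months and 5 without array 1 of 1 month. With 1 wild-type array left out the interferon count was 4 to 13, and Igtp lost its call after centring and without array 1 of either age.

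Long noncoding RNAs were among the largest single rises. Kantr, a long noncoding RNA of the X chromosome, read 9.93 and 113 at 1 month and 1562 and 1402 at 4 months, a change of 4.69 ± 0.60 (limma, adjusted p = 0.000486); its other probe sets above the filter changed by 0.62 and 0.35. Kantr lost its call when any array of 4 months of either genotype was left out. Each fit picked the brightest probe set anew from the arrays kept, so this loss can come from a change of probe set. Kcnq1ot1, the long antisense RNA of an imprinted region, read 132 and 272 and then 3199.8 and 2719, a change of 3.84 ± 0.26 (adjusted p = 2.91e-05). Lncpint, a noncoding RNA induced by p53, read 3.76 and 6.37 and then 199.8 and 213. Malat1 and Neat1, nuclear RNAs that lie outside the rule for named genes and were chosen after their values were seen, rose by 1.80 and 1.94. The wild type changed alike in direction, with 4.11 for Kantr, 3.72 for Kcnq1ot1 and 3.65 for Lncpint. Of 368 long noncoding RNAs tested 61 rose (16.6%) and 14 fell (3.8%), and of 11251 protein-coding genes 11.5% rose and 16.1% fell.

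The protein-coding genes among the largest rises often rested on 1 probe set. Tbc1d1, a regulator of glucose transporter traffic, read 101 and 147 at 1 month and 2048 and 1639 at 4 months (3.74 ± 0.36, limma, adjusted p = 0.000123), but its other probe sets changed by 0.65 to 0.88. Dis3l2, an RNA exonuclease, rose by 3.28 and its other probe set changed by 0.17. Lin52, a subunit of a cell cycle repressor, rose by 3.20 and its other probe set changed by -0.43. Ighg3, an IgG heavy chain, read 227 and 644 and then 3455 and 5507, a change of 3.45 ± 0.46, while its other probe sets changed by 0.90 and 0.50. Over all genes, 802 of the 1381 higher ones had another probe set above the filter, and in 582 (72.6%) at least 1 of these moved the same way at an unadjusted p under 0.05. Of 984 lower genes with another probe set 596 (60.6%) did, and in 124 (12.6%) one moved the opposite way.

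Probe sets that the platform annotation gives no gene symbol leaned the same way in both genotypes. Of 3690 above the filter 1781 were called higher (48.3%) and 128 lower (3.47%), with a median of 1.06. The 21957 probe sets with 1 symbol gave 16.2% higher, 13.5% lower and a median of 0.07. In the wild type the unnamed probe sets gave 46% higher and 2.47% lower, and the difference between genotypes called 0 of them. After centring 1448 were higher and 258 lower, and without array 1 of 1 month, array 1 of 4 months or array 2 of 4 months 60, 80 and 53 were lower. These probe sets rose on the arrays whose B1 repeat signal and median intensity were higher; the part of either in the shift was not tested.

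**Figure D3:**
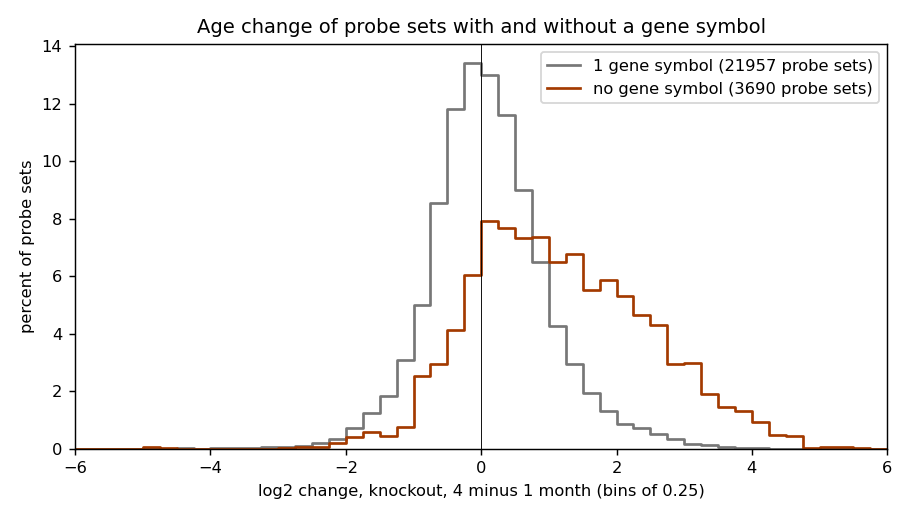
Percent of probe sets in bins of 0.25 of log2 change from 1 to 4 months in the knockout, for 21957 probe sets with 1 gene symbol and 3690 with none. The first kind centres near 0 with a median of 0.07, and the second is shifted to higher values with a median of 1.06.

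Among genes that changed by at least 2-fold, the 5 brightest risen ones were ND5, a mitochondrially encoded subunit of complex I (10655 and 10878, then 26024 and 23080.0), Myh9, a nonmuscle myosin heavy chain (5036 and 4919, then 19171 and 19613), Ltb, a lymphotoxin chain of T cells (5067 and 12895, then 20512 and 22479), Kbtbd11 and Bbip1. The changes were 1.19, 1.96, 1.41, 1.21 and 1.86, and another probe set of Bbip1 changed by -0.38; Ltb lost its call without array 1 of 1 month or array 2 of 4 months. Besides S100a8 and S100a9 the brightest genes that fell by at least 2-fold were H2az1, a histone variant, by 1.07, Prdx2, an antioxidant enzyme abundant in red cells, by 1.01, and Rps27l, a ribosomal protein-like gene, by 1.06. Dntt, the polymerase that diversifies receptor joints in young lymphocytes and a gene outside the naming rule chosen after its values were seen, read 551 and 753 and then 43.3 and 128.

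Most of what changed with age in the knockout had the same direction in the wild type. Of the 3215 genes called in the knockout, 3084 (95.9%) had a change of the same sign in the wild type, where 1937 genes were called (16.5% of those tested). The same-sign share over all genes tested is not given here, so the 95.9% has no background beside it. Both genotypes called 1423 genes in 1 direction, which is 44.3% of the knockout calls and 73.5% of the wild-type calls, and 5 in opposite directions. Of all genes tested, 16.5% were called in the wild type and 27.3% in the knockout, in either direction. Across genes the changes correlated at r = 0.708, as a description over genes, which are no independent replicates and share the array platform and its scaling.

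**Figure D4:**
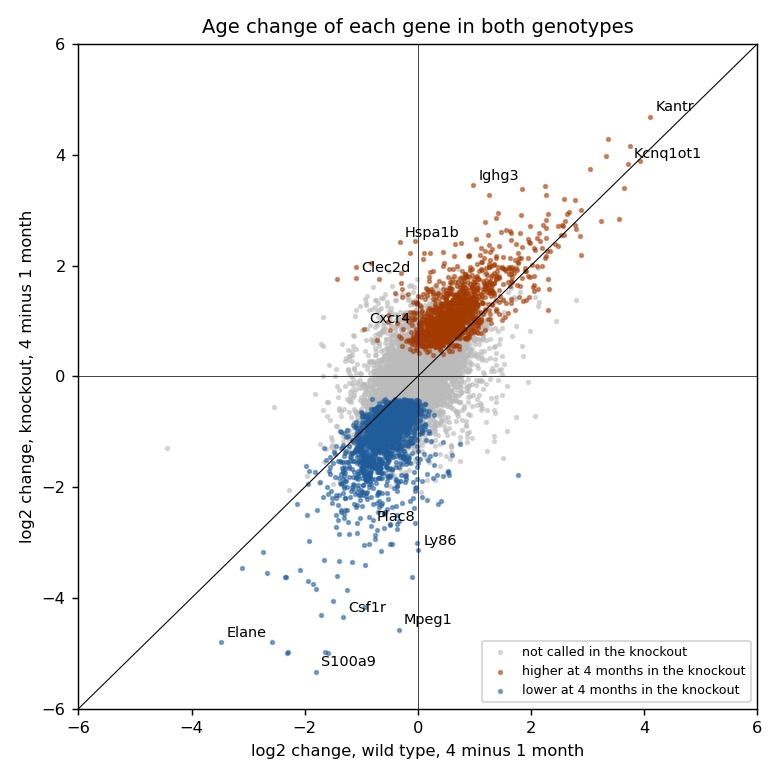
Log2 change from 1 to 4 months of each of the 11759 genes in the knockout against that in the wild type, with the line of equal change and with genes called in the knockout in colour. Granulocyte and macrophage genes such as S100a9, Elane, Csf1r and Mpeg1 lie among the lowest, and Kantr and Kcnq1ot1 lie near the line at the upper right.

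The difference between the age changes was tested directly as an interaction. By limma 0 genes were called as more positive in the knockout and 1 as more negative (0.0085% of those tested), while 1159 had an unadjusted p under 0.05 where 588 are expected if no gene differs. The 1 gene was Plac8, a lysosomal protein of myeloid cells and lymphocytes. It read 8538 and 9247 at 1 month and 1316 and 1384 at 4 months in the knockout, and 4595, 3518 and 4244 and then 2787, 2117 and 2049 in the wild type. Its knockout arrays were the highest of the 10 at 1 month and the lowest at 4 months. The change was -2.70 ± 0.18 in the knockout and -0.83 in the wild type, a difference of -1.87 ± 0.24 (limma, adjusted p = 0.047). It passed in 8 of 22 alternatives, with an adjusted p from 0.0189 to 0.412 and a difference from -2.01 to -1.73.

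The other genes of smallest p in that direction were mostly myeloid and did not pass. Mpeg1 differed by -4.22 ± 0.69 (limma, adjusted p = 0.173), with wild-type arrays at 879, 179 and 711 at 1 month and 359, 387 and 396 at 4 months. Ly86, a partner of a Toll-like receptor homologue on B cells and macrophages, differed by -3.15 ± 0.46 (adjusted p = 0.107), with 911 and 1549 and then 93.7 and 155 in the knockout. Csf1r, Tyrobp, Alox5ap, Cpa3 and Ptgr1 differed by -3.03, -2.99, -2.58, -2.02 and -1.34. Without wild-type array 1 of 1 month 8 genes passed in this direction, and without the first 1-month array of both genotypes 27.

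In the other direction the 8 leading genes rose in the knockout, and none of them passed the test of the difference. Cxcr4, the receptor that retains cells in marrow, read 2864 and 2509.8 at 1 month and 3523 and 6796 at 4 months in the knockout, and 1859, 1787 and 1856 and then 870.4, 1015 and 940.4 in the wild type. Its age changes of 0.86 and -0.95 were both called, and the difference was 1.82 ± 0.31 (limma, adjusted p = 0.173). Clec2d, a lectin recognised by natural killer cell receptors, read 1022 and 1166 and then 3554 and 4026, and changed by -1.10 in the wild type (difference 2.87 ± 0.53, adjusted p = 0.199). Hspa1b, an inducible heat shock protein, read 109.9 and 163 and then 1072 and 578, while all 6 wild-type arrays lay between 34.3 and 72.6; its near-identical copy Hspa1a may share the signal. Irgm2, an interferon-induced GTPase, read 1226 and 1489 and then 2495 and 1836. The knockout calls of Cxcr4, Clec2d and Irgm2 were lost without array 1 of 1 month or array 2 of 4 months, and those of Cxcr4, Irgm2 and Myh14 after centring. Marchf10, Myh14, Slfn5 and Utrn differed by 2.37, 3.19, 1.71 and 0.99. The genes called in opposite directions in the genotypes were Cxcr4, Clec2d, Irgm2 and Myh14, higher with age in the knockout, and Batf3, lower. In this direction 1 gene passed without array 1 of 4 months (Cxcr4), 1 without wild-type array 3 of 1 month (Clec2d), 1 without wild-type array 2 of 4 months and 1 without the first 1-month array of both genotypes.

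**Figure D5:**
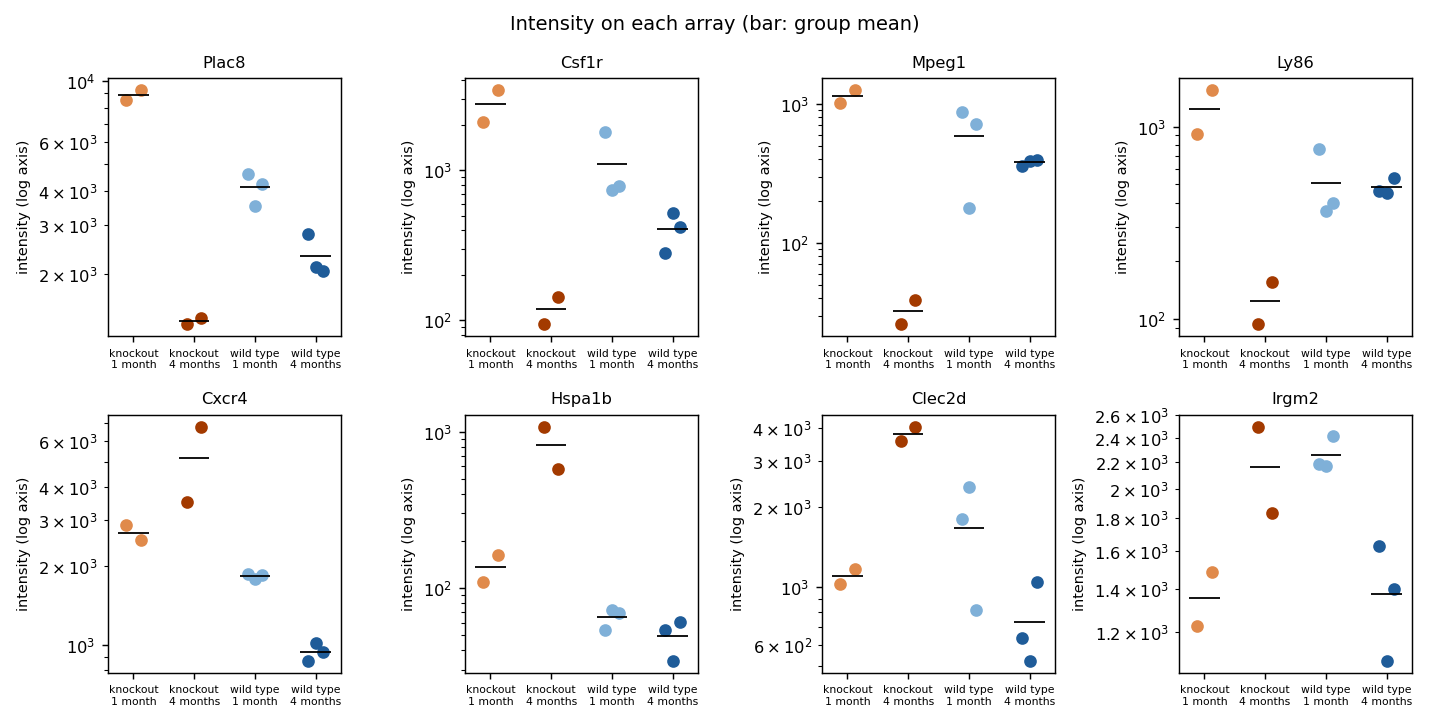
Intensity on each of the 10 arrays (log axis, a separate range per panel, bar at the group mean) for 8 of the genes with the smallest p for the difference between the age changes. Plac8, Csf1r, Mpeg1 and Ly86 drop on both knockout arrays of 4 months, and Cxcr4, Hspa1b, Clec2d and Irgm2 are higher there than on both knockout arrays of 1 month.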

How the data were processed

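RNA from CD4+ spleen cells of 10 mice was extracted with Trizol and hybridised to Affymetrix arrays under the array maker's protocol, per the labels. The authors deposited linear intensity values; the submitters' processing notes name MAS5 without its settings. Every array had a mean of 500 after trimming 2% of probe sets at each end. Of 45101 probe sets, 34958 had 1 gene symbol, 932 several and 9211 none; 34754 matched RefSeq (GRCm38.p6) by gene identifier. Probe sets above the array median on at least 2 of 10 arrays were kept, and the brightest represented a gene, sets that bind several transcripts only where there was no other, which left 11759 of 18194 genes. limma 3.58.1 in R 4.3.3 fitted log2(intensity + 16) on 4 group means over 10 arrays, with moderation along the intensity (residual degrees of freedom 6, prior 6.06), two-sided, adjusted over all genes at 0.05. The script was tested on simulated data. The number of arrays limits the precision.

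Named genes were the 12 largest rises and 12 largest falls among called genes with separate ages, the 5 brightest in each direction changed at least 2-fold, the 4 members of smallest p and called members of each list, and the 8 genes of smallest p in each direction of the difference, leaving out clone names. Not all of them are described. The comparison, the gene lists and this rule were chosen with earlier results of these data known. The alternatives changed the scaling (quantile, centring), the pseudocount (1, 64), the filter (none, percentile 75), the use of a trend or of array weights, the choice among probe sets (their mean, or each named one), the samples (the 2 ages of 1 genotype alone, or 1 array fewer) and the replicate block.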

Additional observations from a re-analysis of the deposited data

Results flagged for a closer look

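Plac8 had an age change in the knockout that differed from that in the wild type by -1.87 on the log2 scale, and it was the 1 gene of 11759 for which limma's test of that difference passed (adjusted p = 0.047). In the knockout it changed by -2.70 and in the wild type by -0.83.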

How the results depend on the processing

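Of the 315 genes under the naming rule that passed in the knockout, 119 passed in every alternative other than the granulocyte covariate, 310 kept their direction in all of those, and 0 passed with the covariate. In the knockout the covariate separates the ages by itself, so that fit cannot tell age from the granulocyte markers. The fits without the trend, with the replicate block and on the 2 ages alone cannot move a knockout change, so a kept direction there tests nothing. Higher and lower counts in the knockout were 697 and 3694 after centring, 3451 and 2859 over every named probe set, 613 and 805 without the first 1-month array of both genotypes, and 0 and 0 with the granulocyte covariate; with 1 array left out they ran from 446 to 1724 and from 664 to 2180. In the wild type they were 416 and 3171 after centring, 1805 and 2282 with array weights, 2449 and 2057 over every named probe set, and 169 and 128 with the covariate. The wild type had 701 lower genes without the trend, 709 without the first 1-month arrays, and 1252 higher with the mean of probe sets; with 1 array left out it had 261 to 1064 higher and 286 to 1311 lower. The difference called 2 genes as more negative after centring and 27 without the first 1-month arrays (1 as more positive). It called 0 as more negative with a pseudocount of 1, no trend, array weights, the mean of probe sets, every named probe set and the covariate, and 0 to 8 with 1 array left out (0 to 1 as more positive). The labels do not say that equal replicate numbers pair mice; with the replicate number as a block the knockout gave 1383 higher and 1774 lower, and the difference called 0 as more negative. The deviations of the knockout's same-numbered arrays correlated at 0.132. Directions reversed for Atp5c1 (-0.54) and Rps20 (0.24) under the filter at percentile 75, where another probe set stood for the gene. They also reversed for Ndufb2 (0.33), Psma1 (0.37) and Srrm1 (0.38) under the mean of probe sets. With the covariate they reversed for C1qb (0.74), Camp (1.39), Cd177 (0.87), Chil3 (0.56), Lcn2 (2.55), Ltf (1.94), Mmp8 (0.29), Ms4a1 (0.13), Ngp (2.71), S100a8 (1.86) and S100a9 (1.97). Apart from the change of probe set, the causes of these shifts were not tested. Fits on only the groups compared gave 1054 and 1520 in the knockout and no value for the difference. Genes near background limit every fold.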
